A study of Mus musculus with 2 samples.

Results

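The 9 genes described here, *Ptprc*, *Laptm5*, *Cd53*, *Cd52*, *Lcp1*, *Rac2*, *Cd48*, *Arhgdib* and *Coro1a*, are transcribed in most kinds of white blood cell and are used together as pan-leukocyte genes. They were taken by symbol from the 18159 genes of an mRNA-seq table, by a rule that uses no measured level, although the set was proposed with earlier results of these data known, and all 9 were listed and above 0 in both libraries. The table covers the tunica muscularis of the jejunum, that is, the muscle layers of this stretch of small intestine peeled off the mucosa, from *Dnmt1*-WT and *Dnmt1*-KO mice 15 days old (P15), with 1 library per genotype. Both groups were on a C57BL/6 background and carried a Cre and eGFP transgene driven by the promoter of *Myh11*, a myosin gene of smooth muscle cells (SMC), which directs recombination to SMC. In the *Dnmt1*-KO both copies of *Dnmt1*, the maintenance DNA methyltransferase, were floxed and deleted in SMC. The study describes the *Dnmt1*-WT mice by the transgene alone. The strain label of both samples nevertheless names Dnmt1lox/lox, and the free description of both names the deletion, so the *Dnmt1*-WT group rests on its title and genotype label. The targeted gene itself, *Dnmt1*, had 11.58 FPKM under the *Dnmt1*-WT label and 7.58 FPKM under the *Dnmt1*-KO label. The methods give males and females for each genotype without saying how their RNA was combined, and the tissue was not sorted before RNA was extracted. FPKM are fragment numbers divided by transcript length and by sequencing depth, so levels may be compared between genes. Because each genotype has 1 library, none of the differences below could be set against a spread between mice, and no test was made. Read counts behind the genes are unknown.

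White blood cells differ in lineage but share a common equipment. At the surface they carry CD45, a transmembrane phosphatase that switches Src family kinases on and off, together with small glycoproteins and tetraspanins that organise receptors in the membrane. Inside, a haematopoietic Rac GTPase with its inhibitor and a set of actin-binding proteins drives migration, phagocytosis and the respiratory burst. The muscle layer of the gut normally holds resident macrophages, with few lymphocytes and mast cells.

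All 9 genes had more FPKM in *Dnmt1*-KO than in *Dnmt1*-WT, and 8 of the 9 had a *Dnmt1*-KO to *Dnmt1*-WT ratio of 2 or more. Among all 16102 genes above 0 FPKM in both libraries, 11.8% had a ratio of 2 or more and 4.98% a ratio of 0.5 or less. The median ratio of the 9 genes was 3.07, or 1.62 on the log2 scale, beside 0.0050 on the log2 scale for all genes. *Cd48*, with a ratio of 1.70, was the exception on the low side, and *Cd52*, with 5.04, had the highest ratio. The other ratios lay between 2.43 and 3.39, and 6 of the 9 were between 2.9 and 3.4. Neither library shows which cells the transcripts came from, and in bulk tissue more cells of a type and more RNA per cell cannot be told apart.

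**Figure D1:**
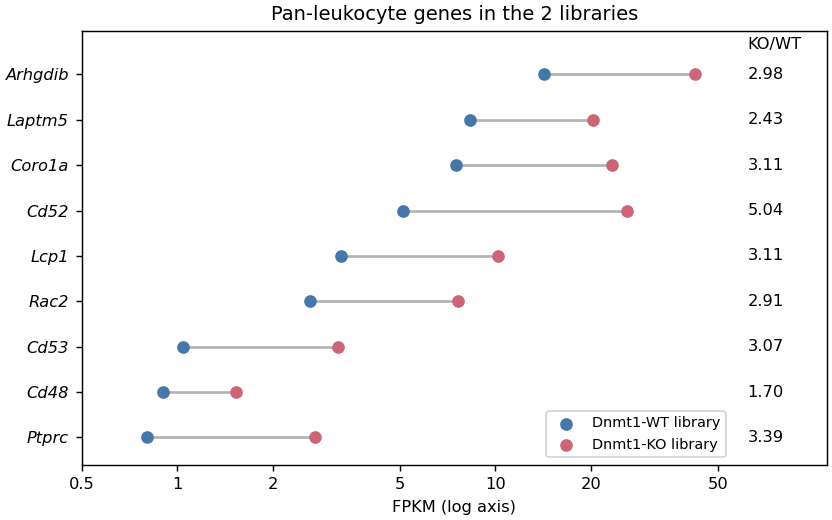
FPKM of each pan-leukocyte gene in the *Dnmt1*-WT library (blue) and the *Dnmt1*-KO library (red) on a log axis, 1 library per genotype, ordered by the *Dnmt1*-WT level, with the ratio at the right. Every red point lies to the right of its blue point, by the widest gap for *Cd52* (ratio 5.04) and the narrowest for *Cd48* (1.70).

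The membrane proteins came first. *Ptprc* (GRCm38 chr1:138062859-138175756) encodes CD45, the antigen by which leukocytes are told from other cells. Its level was 0.8 FPKM in *Dnmt1*-WT and 2.71 FPKM in *Dnmt1*-KO, a ratio of 3.39. Since values are given to 2 decimals, rounding alone allows a ratio between 3.36 and 3.42. *Ptprc* had the lowest level of the 9 genes in *Dnmt1*-WT and the second lowest in *Dnmt1*-KO, yet its ratio was the second highest.

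*Cd52* (chr4:134093538-134095073) encodes a very short GPI-anchored glycoprotein of lymphocytes and other mononuclear cells. Its level was 5.14 FPKM in *Dnmt1*-WT and 25.88 FPKM in *Dnmt1*-KO. It moved from the fourth highest level of the 9 genes to the second highest, and its share of their summed FPKM from 11.7% to 18.9%. Its longest coding transcript has 514 bases, the shortest among the 9 genes. Of its annotated exon bases, 14.5% lie opposite exons of *Crybg2*, which is listed under the older symbol *Aim1l* at 0.24 FPKM in *Dnmt1*-WT and 0.36 FPKM in *Dnmt1*-KO, levels far under those of *Cd52*.

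*Cd48* (chr1:171681245-171705258), a GPI-anchored protein of the SLAM family that binds CD2 and CD244 on neighbouring cells, was at 0.9 FPKM in *Dnmt1*-WT and 1.53 FPKM in *Dnmt1*-KO. Its ratio of 1.70 was higher than those of 84.5% of the genes above 0 in both libraries, whereas each of the other 8 genes stood above at least 91.4% of them. Per unit length, *Cd48* was 1.13 times the level of *Ptprc* in *Dnmt1*-WT and 0.565 times in *Dnmt1*-KO, so that these genes changed places at the bottom of the order.

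*Cd53* (chr3:106758861-106790149), a tetraspanin, was at 1.04 FPKM in *Dnmt1*-WT and 3.19 FPKM in *Dnmt1*-KO, with a ratio of 3.07 that was the median of the 9. *Laptm5* (chr4:130912890-130936148), a lysosomal membrane protein that lowers antigen receptor levels at the surface, was at 8.33 FPKM and 20.24 FPKM. It was the second most abundant of the 9 genes in *Dnmt1*-WT and the fourth in *Dnmt1*-KO, because its ratio of 2.43 was under those of *Coro1a* and *Cd52*.

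The second group acts on small GTPases and actin. *Rac2* (chr15:78559169-78572783), the haematopoietic Rac GTPase, was listed at 2.62 FPKM in *Dnmt1*-WT and 7.63 FPKM in *Dnmt1*-KO, a ratio of 2.91. *Arhgdib* (chr6:136923655-136941899), which encodes a GDP dissociation inhibitor of small GTPases in blood cells, was the most abundant of the 9 in both libraries, at 14.22 FPKM and 42.4 FPKM. It supplied 32.5% of the summed FPKM of the 9 genes in *Dnmt1*-WT and 30.9% in *Dnmt1*-KO. The GTPase and its inhibitor therefore had ratios close to each other, 2.91 and 2.98.

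*Coro1a* (chr7:126699774-126704816), a coronin that binds filamentous actin and is needed for T cell survival, went from 7.5 FPKM in *Dnmt1*-WT to 23.29 FPKM in *Dnmt1*-KO. *Lcp1* (chr14:75131105-75230842), or L-plastin, which bundles actin filaments, was at 3.27 FPKM and 10.17 FPKM. Both ratios were 3.11. Of the annotated 50-base stretches of *Lcp1*, 12% are also found in other genes, so its value may include or lack some reads of these. The same share was 1.33% for *Rac2*, 2.46% for *Arhgdib* and 0% for the other 6 genes.

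The order of the levels was almost the same in both libraries. In *Dnmt1*-WT it ran *Arhgdib*, *Laptm5*, *Coro1a*, *Cd52*, *Lcp1*, *Rac2*, *Cd53*, *Cd48* and *Ptprc*, and in *Dnmt1*-KO *Arhgdib*, *Cd52*, *Coro1a*, *Laptm5*, *Lcp1*, *Rac2*, *Cd53*, *Ptprc* and *Cd48*. The positions that differed were those of *Cd52* and *Laptm5*, and of *Cd48* and *Ptprc*. Without replicates it is unknown which neighbours in either order differ beyond the spread between mice. The most abundant gene stood 17.8 times above the least abundant in *Dnmt1*-WT and 27.7 times in *Dnmt1*-KO. In *Dnmt1*-WT 1 of the 9 genes exceeded 10 FPKM and in *Dnmt1*-KO 5 did. The sum of the 9 genes was 43.82 FPKM in *Dnmt1*-WT and 137 FPKM in *Dnmt1*-KO, a ratio of 3.13. Without *Cd52* the sums were 38.68 and 111.2 FPKM, and their ratio was 2.87.

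In the distribution of all genes, each pan-leukocyte gene stood higher in *Dnmt1*-KO than in *Dnmt1*-WT, by unequal steps. *Arhgdib* had a higher FPKM than 72.6% of all 18159 listed genes in *Dnmt1*-WT and 90.8% in *Dnmt1*-KO, with genes listed at 0 included. For *Cd52* these shares were 49.8% and 84.3%, and for *Ptprc* 26.3% and 37.6%. *Cd48* moved least, from 27.3% to 29.7%. Ratios of weakly expressed genes are wider than those of abundant ones, so the 9 genes were also set beside the 10017 genes whose geometric mean FPKM lies in their own range, 1.17 to 24.55. Of these, 7.82% had a ratio of 2 or more. Their median log2 ratio was -0.04 with an SD of 0.75 across genes, whereas the 9 genes had a median of 1.62 and an SD of 0.41. The members were picked as genes shared by most kinds of white blood cell, so their closeness to each other is a description and no test.

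**Figure D2:**
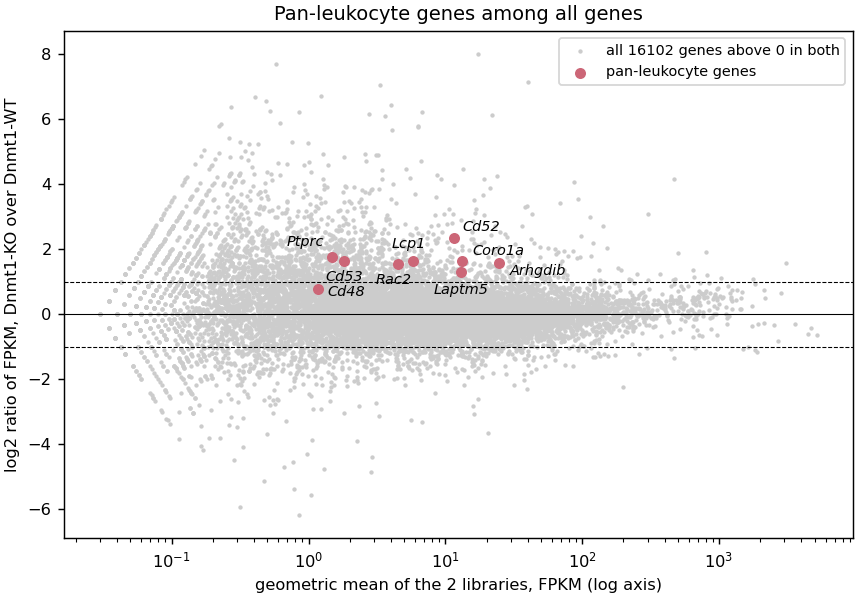
Log2 ratio of FPKM (*Dnmt1*-KO over *Dnmt1*-WT) against the geometric mean FPKM of the 2 libraries on a log axis for the 16102 genes above 0 in both (grey) and the 9 pan-leukocyte genes (red), with dashed lines at ratios of 2 and 0.5. All red points but *Cd48* lie above the upper dashed line, at log2 ratios from 1.28 for *Laptm5* to 2.33 for *Cd52*.

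The promoters are shown because the 9 genes were higher together and are known, as a class, to be read by ETS and RUNX family factors in blood cells. RefSeq promoters of GRCm38.p6, from 250 bases before to 50 bases after each transcription start, matched 7 of the 9 symbols with 12 start sites. *Rac2* and *Cd52* had no entry in the table. The letters GGAAGT (ETS), GAGGAA (the purine-rich form bound by PU.1) and TGTGGT (RUNX) were searched on both strands. GGAAGT and GAGGAA can share up to 4 bases. In the sequences below, written 5′ to 3′ on the strand of the gene, capitals mark GGAAGT and TGTGGT or their reverse complements, and GAGGAA is left in lower case. The windows shown are those of *Ptprc* (first start site, chr1:138175256-138175555, minus strand), *Laptm5* (chr4:130913066-130913365, plus strand), *Cd53* (chr3:106790100-106790399, minus strand), *Cd48* (chr1:171681742-171682041, plus strand) and *Coro1a* (first start site, chr7:126704767-126705066, minus strand). They were chosen as the 3 membrane genes with a promoter entry and a ratio of 2 or more, the gene with the lowest ratio, and a gene whose windows hold none of these letters.
Ptprc: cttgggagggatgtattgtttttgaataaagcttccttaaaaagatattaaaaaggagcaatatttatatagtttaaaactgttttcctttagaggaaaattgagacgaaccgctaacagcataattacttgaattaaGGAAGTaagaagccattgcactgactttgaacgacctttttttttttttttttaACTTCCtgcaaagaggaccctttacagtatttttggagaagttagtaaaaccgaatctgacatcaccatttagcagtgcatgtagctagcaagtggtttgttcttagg
Laptm5: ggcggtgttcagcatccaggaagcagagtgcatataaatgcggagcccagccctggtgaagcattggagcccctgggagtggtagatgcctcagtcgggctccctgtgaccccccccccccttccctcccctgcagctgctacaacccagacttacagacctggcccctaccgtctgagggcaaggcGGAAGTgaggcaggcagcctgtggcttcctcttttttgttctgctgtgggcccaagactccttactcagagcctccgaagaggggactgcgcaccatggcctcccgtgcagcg
Cd53: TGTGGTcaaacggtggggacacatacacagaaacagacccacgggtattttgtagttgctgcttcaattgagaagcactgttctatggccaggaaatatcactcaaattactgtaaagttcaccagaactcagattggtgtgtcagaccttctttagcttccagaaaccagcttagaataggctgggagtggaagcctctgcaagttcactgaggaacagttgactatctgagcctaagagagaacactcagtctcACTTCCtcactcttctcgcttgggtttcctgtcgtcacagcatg
Cd48: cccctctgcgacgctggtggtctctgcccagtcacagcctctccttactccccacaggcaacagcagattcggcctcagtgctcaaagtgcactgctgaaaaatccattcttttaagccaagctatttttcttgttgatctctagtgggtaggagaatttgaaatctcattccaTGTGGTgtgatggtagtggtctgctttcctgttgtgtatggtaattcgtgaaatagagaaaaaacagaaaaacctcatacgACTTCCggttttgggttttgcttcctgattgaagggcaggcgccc
Coro1a: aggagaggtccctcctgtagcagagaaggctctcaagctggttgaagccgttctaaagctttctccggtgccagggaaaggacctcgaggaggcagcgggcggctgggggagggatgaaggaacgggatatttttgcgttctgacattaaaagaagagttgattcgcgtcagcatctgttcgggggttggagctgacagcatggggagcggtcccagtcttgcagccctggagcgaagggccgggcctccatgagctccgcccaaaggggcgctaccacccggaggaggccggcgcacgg

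GGAAGT was found in 7 of the 12 promoters of the pan-leukocyte genes, which belong to 6 of the 7 genes with a promoter, all but *Coro1a*. Among all 32851 promoters of the same length 23.8% hold it, and among 27025 genes 26.5% hold it in at least 1 promoter. The first window of *Ptprc* and the second of *Arhgdib* each hold it at 2 places. Both windows of *Ptprc* overlap and share 1 of these matches. GAGGAA was found in 4 of the 12 promoters and 4 of the 7 genes, beside 28.3% of all promoters and 31.3% of all genes. TGTGGT was found in 3 of the 12 promoters and 3 of the 7 genes, beside 16.8% of all promoters and 18.9% of all genes. The 12 promoters of 7 genes are more per gene than in the whole table, so counts by gene had more windows to match. *Cd48*, the gene with the lowest ratio, holds both GGAAGT and TGTGGT, and *Coro1a*, with a ratio of 3.11, holds none of the 3. The 12 promoters had a median of 5.5 CpG in 300 bases and a range from 2 to 19, beside a median of 7 and quartiles of 3 and 20 for all promoters. The first windows of *Lcp1* and *Coro1a* each had 19 CpG, and the 2 windows of *Ptprc* had 4 and 2. A match of letters is a description of the window and shows no binding, and methylation of these windows was not analysed here.

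Of the pan-leukocyte genes, 7 have relatives that are expressed in many tissues, and 1 or 2 of these were set beside each. No such pair was formed for *Cd52* or *Cd48*. *Rac1*, the ubiquitous Rac GTPase, was at 136.16 FPKM in *Dnmt1*-WT and 127.45 FPKM in *Dnmt1*-KO, and *Rac2* therefore made up 1.89% of the pair in *Dnmt1*-WT and 5.65% in *Dnmt1*-KO. *Arhgdia*, the ubiquitous inhibitor of the same class, was at 119.82 and 157.39 FPKM, and the share of *Arhgdib* in the pair was 10.6% and 21.2%. *Pls3*, the plastin of solid tissues, was at 38.54 and 37.83 FPKM, and the share of *Lcp1* was 7.82% and 21.2%. In each of these pairs the relative was more abundant than the leukocyte gene in both libraries.

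For *Coro1a*, the share in its pair with *Coro1c* (135.44 FPKM in *Dnmt1*-WT and 133.97 FPKM in *Dnmt1*-KO) was 5.25% and 14.8%. In the pair with *Coro1b*, itself higher in *Dnmt1*-KO (38.57 and 58.3 FPKM), the share of *Coro1a* was 16.28% and 28.55%. *Laptm5* made up 2.87% and 6.76% of its pair with *Laptm4a*, and *Cd53* made up 0.360% and 1.04% of its pair with *Cd81*, a tetraspanin listed at 288.13 and 302.87 FPKM. *Ptprc* made up 1.94% of its pair with *Ptpra* in *Dnmt1*-WT and 6.89% in *Dnmt1*-KO. The share of the leukocyte gene was thus higher in *Dnmt1*-KO in all of these pairs.

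Over whole families, 8 of the 46 relatives above 0 in both libraries had a ratio of 2 or more, with a median ratio of 1.15. The share among all genes was 11.8%. With 1 FPKM added the count was 3 of 49, beside a background of 4.73%. With 1 FPKM required in both libraries it was 1 of 36, beside 5.53%. Of the 8 genes, 5 were in the SLAM family of *Cd48* and 1, *Cd37* (0.23 FPKM in *Dnmt1*-WT and 1.98 FPKM in *Dnmt1*-KO), was a tetraspanin like *Cd53*, and these are themselves genes of blood cells. The relatives of *Coro1a*, *Arhgdib*, *Rac2*, *Lcp1* and *Laptm5* included none with a ratio of 2 or more. Among 20 receptor phosphatases related to *Ptprc*, 2 reached that ratio, the endothelial *Ptprb* (3.71 and 9.58 FPKM) and *Ptprv* (0.05 and 0.15 FPKM). The median ratio of the phosphatases was 1.03, and whether it lay above or under 1 depended on the scaling between libraries.

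*Cd48* had a lower ratio than most of its own family. *Slamf7* was at 0.05 FPKM in *Dnmt1*-WT and 0.63 FPKM in *Dnmt1*-KO, *Slamf8* at 0.12 and 1.06 FPKM, and *Slamf9* at 0.35 and 2.85 FPKM. *Cd84*, at 0.54 and 0.63 FPKM, was the SLAM family gene nearest to *Cd48*, with a ratio of 1.17. *Cd244*, which encodes a receptor for CD48, was at 0.07 FPKM and 0.22 FPKM, and *Cd2* was listed at 0 in *Dnmt1*-WT only. All of the SLAM family values in *Dnmt1*-WT were under 1 FPKM, where ratios are least certain.

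**Figure D3:**
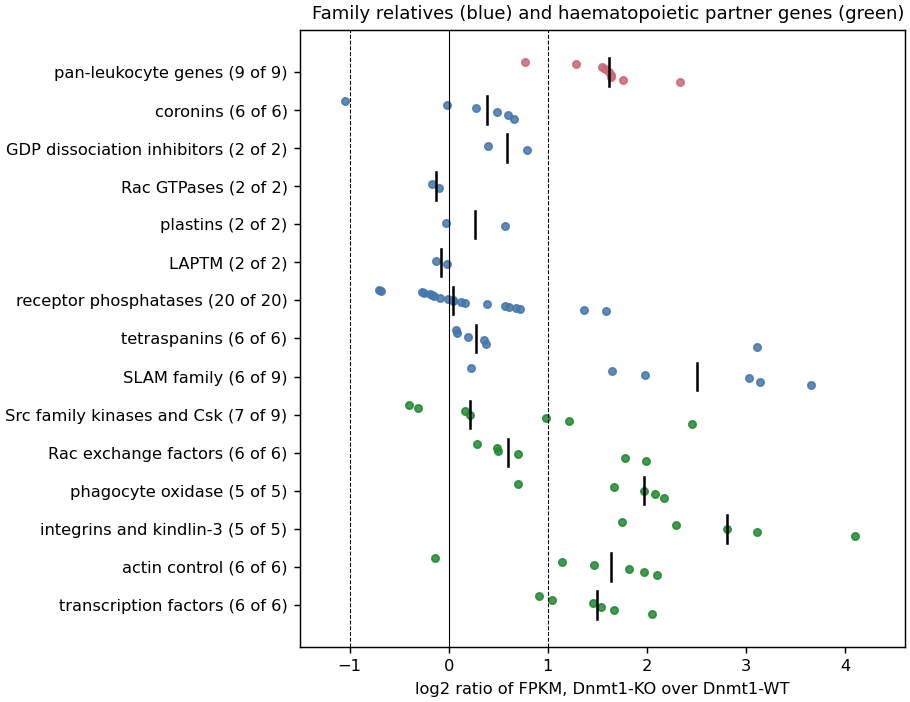
Log2 ratio of FPKM (*Dnmt1*-KO over *Dnmt1*-WT) of the 9 pan-leukocyte genes (red), their family relatives (blue) and haematopoietic partner genes (green), 1 point per gene, with black bars at the medians, dashed lines at ratios of 2 and 0.5, and the number of genes above 0 in both libraries beside each name. Coronins, GDP dissociation inhibitors, Rac GTPases, plastins and LAPTM genes lie to the left of the upper dashed line, and all 5 genes of leukocyte integrins and kindlin-3 lie to the right of it.

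A further list of 37 haematopoietic partner genes held other genes of the same pathways and cells, among them 6 transcription factors. Of the 35 above 0 in both libraries, 23 had a ratio of 2 or more and 0 a ratio of 0.5 or less, and their median ratio was 2.91, close to that of the pan-leukocyte genes. The background share was 11.8%. Many partner genes are low, and the count was 15 of 37 with 1 FPKM added to each value, beside a background of 4.73%, and 8 of 19 with 1 FPKM required in both libraries, beside 5.53%. The kinases regulated by CD45 were uneven. *Lck*, the kinase of T cells, was at 0.64 FPKM in *Dnmt1*-WT and 1.48 FPKM in *Dnmt1*-KO, a ratio of 2.31. The broadly expressed *Src* (23.39 and 18.85 FPKM) and *Yes1* (6.47 and 4.89 FPKM) were lower in *Dnmt1*-KO.

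Around *Rac2*, the exchange factors *Vav1* (0.66 FPKM in *Dnmt1*-WT and 2.26 FPKM in *Dnmt1*-KO) and *Dock2* (0.43 and 1.71 FPKM), both of blood cells, had ratios of 3.42 and 3.98. The other 4 exchange factors had ratios under 2. Of the phagocyte oxidase, which Rac2 activates, *Cybb* was at 1.2 and 3.8 FPKM, *Ncf1* at 1.44 and 5.64 FPKM and *Ncf4* at 0.5 and 2.12 FPKM, each a ratio of 2 or more. *Cyba*, the subunit that is expressed outside phagocytes too, was at 74.63 and 121.06 FPKM, a ratio of 1.62.

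Among the actin regulators that act beside *Coro1a* and *Lcp1*, 5 of 6 had a ratio of 2 or more. *Was* was at 0.57 FPKM in *Dnmt1*-WT and 2.24 FPKM in *Dnmt1*-KO, and *Nckap1l*, the haematopoietic subunit of the WAVE complex, at 1.25 and 4.41 FPKM. All 4 leukocyte integrin genes, and *Fermt3*, which encodes the integrin activator kindlin-3 (1.3 and 6.35 FPKM), had a ratio of 2 or more. With no pseudocount, 3 of the integrin genes had a higher ratio than *Cd52*. These 3 were under 1 FPKM in *Dnmt1*-WT, where ratios are least certain, whereas *Cd52* was at 5.14 FPKM. *Itgb2*, the common beta chain, was at 0.71 and 4.96 FPKM, *Itgal* at 0.14 and 1.21 FPKM and *Itgax* at 0.07 and 1.2 FPKM. Of the transcription factors, *Spi1*, which encodes PU.1, had a ratio of 4.14, from 2.5 FPKM to 10.36 FPKM, and 5 of 6 had a ratio of 2 or more.

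The genes whose pair of values was nearest to the median pair of the 9 genes, 3.27 FPKM in *Dnmt1*-WT and 10.17 FPKM in *Dnmt1*-KO, were ranked by distance on the log2 scale over the 2 libraries. The members were left out of this ranking, since the median pair is that of *Lcp1* itself. The nearest other gene was *Ifit3* (3.38 and 9.41 FPKM), an interferon-induced gene, followed by *Lfng* (3.56 and 10.7 FPKM), a glycosyltransferase that modifies Notch, and *Hcls1* (3.33 and 9.18 FPKM), the haematopoietic cortactin relative. Next came *Cdh17*, *F13a1*, *Ms4a6c*, *Grasp*, *Lmo2*, *Ptprb* and *Aif1*. The distance was 0.122 for *Ifit3* and 0.210 for *Aif1*. With 2 libraries this likeness covers 2 values only, and the list holds genes of epithelium (*Cdh17*) and endothelium (*Ptprb*) beside genes of leukocytes.

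Marker genes of single leukocyte types were set beside the 9 genes, which do not tell these types apart. Of 12 macrophage genes all were above 0 in both libraries and 10 had a ratio of 2 or more, with a median ratio of 3.09 and summed levels of 156.7 FPKM in *Dnmt1*-WT and 535.1 FPKM in *Dnmt1*-KO. The ratio of that sum, 3.42, stood near that of the sum of the pan-leukocyte genes, 3.13. So did the ratios of sums of the red blood cell list, 3.26, and the dendritic cell list, 2.86. Within the macrophage list, the receptor genes *Csf1r* (14.79 and 26.16 FPKM, a ratio of 1.77) and *Cx3cr1* (4.97 and 7.84 FPKM, a ratio of 1.58) were the 2 genes under a ratio of 2, and both lay under the ratios of the 8 pan-leukocyte genes other than *Cd48*. *Csf1r* was more abundant than *Ptprc* in both libraries.

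Lymphocyte and granulocyte genes were low. Of 10 T cell genes, 5 were listed at 0 in *Dnmt1*-WT only and 1 in both, and the summed level of 50.5 and 89.97 FPKM came mostly from *Thy1*, which is also expressed outside T cells. *Cd3e* was listed at 0 in *Dnmt1*-WT and 0.62 FPKM in *Dnmt1*-KO, and *Cd4* at 0.29 and 2.37 FPKM. The B cell genes summed to 1.34 and 3.62 FPKM, with *Pax5* at 0 in both. The NK cell genes summed to 0.2 and 2.15 FPKM, the mast cell genes to 0.23 and 5.72 FPKM, the eosinophil genes to 0.1 and 0.71 FPKM and the neutrophil genes to 8.03 and 12.69 FPKM, with *Mpo* at 0 in both. Most of the neutrophil sum in *Dnmt1*-WT came from *Camp*, at 6.84 FPKM in *Dnmt1*-WT and 5.71 FPKM in *Dnmt1*-KO, while *Retnlg* was at 0.67 and 4.06 FPKM and *S100a8* at 0 and 2.0 FPKM. The dendritic cell genes summed to 2.37 and 6.78 FPKM, with *Xcr1* and *Cd209a* at 0 in *Dnmt1*-WT only. The plasma cell genes summed to 5 and 6.11 FPKM, mostly from *Sdc1* (4.49 and 6.04 FPKM), which epithelium also expresses, and *Mzb1* (0.34 FPKM in *Dnmt1*-WT) and *Tnfrsf17* (0.17 FPKM) were listed at 0 in *Dnmt1*-KO only. Median ratios of these lists rest on few genes above 0 in both libraries. They were 5.5 for 4 dendritic cell genes, 4.05 for 4 T cell genes and 5.4 for 1 NK cell gene. For 2 mast cell genes the median was 16.1, and for 2 eosinophil genes 4.55. For 3 B cell genes it was 2, for 4 neutrophil genes 1.77 and for 1 plasma cell gene 1.35. The macrophage genes were the leukocyte list with the highest sum in both libraries.

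Genes of other tissues also differed between the libraries that gave the pan-leukocyte values. All 10 smooth muscle genes were lower in *Dnmt1*-KO, with 4 at a ratio of 0.5 or less and sums of 15736.3 FPKM in *Dnmt1*-WT and 10227.4 FPKM in *Dnmt1*-KO. Of the genes of red blood cells above 0 in both libraries 4 of 4 had a ratio of 2 or more, with sums over the list of 172.2 and 562 FPKM, and *Hbb-b1*, 1 of several nearly identical globin genes, was at 0 in *Dnmt1*-KO only. Endothelial genes reached that ratio in 6 of 7 cases, with sums of 50.59 and 136.5 FPKM. Adipocyte genes summed to 107.8 and 1166.3 FPKM, enterocyte genes to 281.6 and 576.6 FPKM, Paneth cell genes to 15.53 and 153 FPKM, goblet cell genes to 51.29 and 81.06 FPKM and fibroblast genes to 1939.9 and 3291.4 FPKM. Genes of mesothelium, enteric glia, enteric neurons and the interstitial cells of Cajal had median ratios between 0.894 and 1.20. The glial genes summed to 59.23 and 88.93 FPKM, with *Gfap* at 4.78 and 35.36 FPKM, the neuronal genes to 311.9 and 361.4 FPKM, the genes of interstitial cells to 83.95 and 74.51 FPKM and those of mesothelium to 228.9 and 222.8 FPKM. The part of blood in vessels, of vessels, of fat, of mucosa left on the muscle and of the smaller muscle signal in the higher pan-leukocyte values was not tested. The pan-leukocyte median lay above those of the endothelial, enterocyte, goblet cell and fibroblast lists and below those of the red blood cell, adipocyte and Paneth cell lists.

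**Figure D4:**
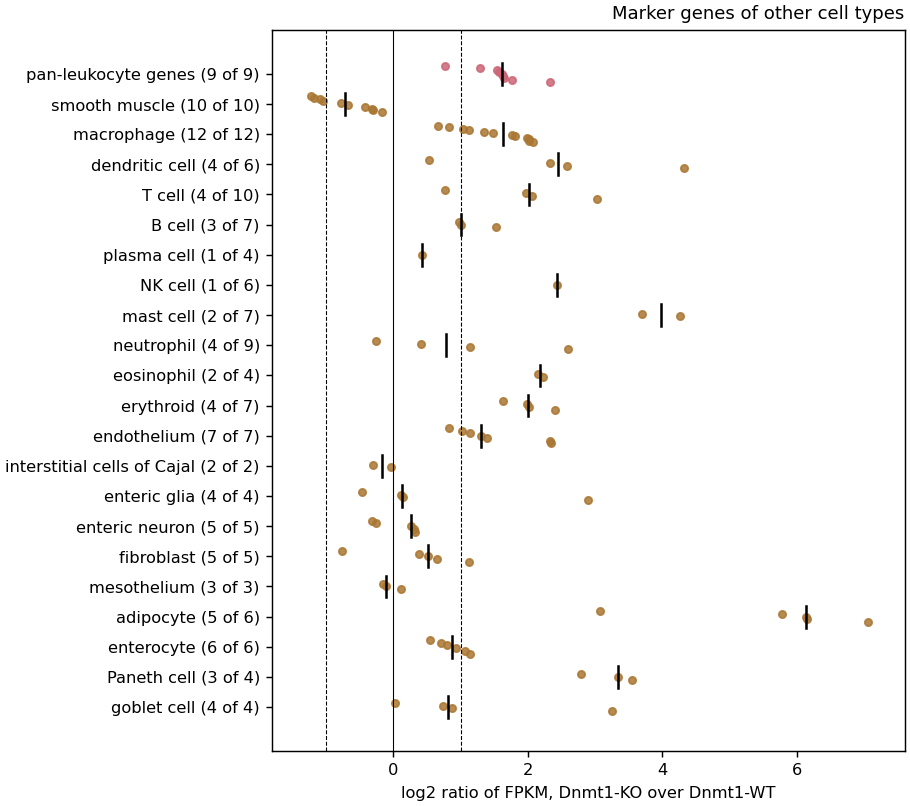
Log2 ratio of FPKM (*Dnmt1*-KO over *Dnmt1*-WT) of the pan-leukocyte genes (red) and of marker genes of single cell types (brown), 1 point per gene above 0 in both libraries, with black bars at the medians, dashed lines at ratios of 2 and 0.5, and the number of genes plotted beside each name. The macrophage median (ratio 3.09) lies beside the pan-leukocyte median (3.07), all smooth muscle genes lie to the left of 0, and 4 of the 5 adipocyte genes plotted lie farthest to the right.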

How the data were processed

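The members and all gene lists were chosen with earlier results of these data known. Per the labels and methods, the authors made TruSeq libraries of jejunal tunica muscularis, mapped reads to GRCm38 (mm10) and deposited FPKM per gene symbol. TopHat 1.4.1 and Cufflinks 2.0.2 are named in the submitters' processing notes. Whether counting used strand is not given in the sources used here. The deposited table also holds the number of transcript variants per library, used as another description, and the authors' ratio, which was not used. Named genes were the 9 members, their family relatives, haematopoietic partners, marker lists, close relatives of 7 members and the 10 genes nearest to the members' median pair. Ratios are plain *Dnmt1*-KO over *Dnmt1*-WT FPKM among genes above 0 in both libraries, with no pseudocount. A ratio of 2 or more, or 0.5 or less, was counted, with no test because each genotype has 1 library. Scaling, pseudocounts of 0.1 and 1 FPKM and minimum levels of 1 FPKM were varied. Gene positions came from RefSeq, transcripts and exon overlaps from GENCODE M21, and promoters from RefSeq (GRCm38.p6). Older symbols were matched where listed, and a few genes of the lists are not reported here. The files give no counts, so the depth behind each gene is unknown and no interval was computed, and the lowest value above 0 was 0.03 FPKM. The counting was tested on simulated data. Python 3.11.15, numpy 2.4.6, pandas 2.3.3 and matplotlib 3.10.9 were used.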

Additional observations from a re-analysis of the deposited data

How the results depend on the processing

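With each of the 4 scalings and both pseudocounts, all 9 pan-leukocyte genes stayed higher in *Dnmt1*-KO and the same 8 had a ratio of 2 or more, with *Cd48* between 1.33 and 1.74. Their median log2 ratio of 1.62 was 1.65 after centring on the median of genes that reach 1 FPKM in both, 1.52 after scaling to the same FPKM sum, 1.65 after scaling to the same 75th percentile, 1.64 with a trimmed mean, 1.57 with 0.1 FPKM added and 1.25 with 1 FPKM added. Without *Cd52*, an alternative chosen after seeing the data, it was 1.60. With at least 1 FPKM required in both libraries, *Ptprc* and *Cd48* were left out by that requirement and 7 of 7 genes had a ratio of 2 or more. Adding 1 FPKM, which shrinks low genes most by construction, gave 2.06 for *Ptprc* and 2.05 for *Cd53*. The background share of genes with a ratio of 2 or more was 10.4% to 12.1% under the scalings, 4.73% with 1 FPKM added and 5.53% with 1 FPKM required in both. The 8 family relatives with such a ratio became 3 with 1 FPKM added and 1 of 36 with 1 FPKM required in both libraries. With 1 FPKM required in at least 1 library they became 4 of 39, beside a background of 9.14%. Of these, *Cd37*, *Slamf8* and *Slamf9* met that requirement in *Dnmt1*-KO only. The 23 partner genes became 15 and, with 1 FPKM required in both, 8 of 19. These requirements remove low genes by construction. No paired analysis was possible because each genotype has 1 library. Leaving out a replicate could not be tried for the same reason. Values under 1 FPKM limit what the SLAM family and lymphocyte lists can show.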

Other observations

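The deposited table also gives the number of transcript variants found for each gene in each library. It was the same in both libraries for 7 of the 9 pan-leukocyte genes, among them *Arhgdib* with 4 and *Coro1a* with 3. *Ptprc*, whose alternative exons distinguish the CD45 forms of lymphocyte and myeloid cells, had 3 variants in *Dnmt1*-WT and 2 in *Dnmt1*-KO. *Lcp1* had 1 in *Dnmt1*-WT and 2 in *Dnmt1*-KO. The table does not say which variants these are, and levels per variant were not analysed here.

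Blood cell genes outside the 9 pan-leukocyte genes, chosen here after their values were seen, had *Dnmt1*-KO to *Dnmt1*-WT ratios on both sides of the range from 1.70 to 5.04. *Itgae* of the dendritic cell list had a ratio of 20, and *Cpa3* and *Hdc* of the mast cell list had 19.2 and 13. *Itgax*, the integrin chain CD11c of dendritic cells and some macrophages, had a ratio of 17.1, *Slamf7* 12.6, *Slamf8* 8.83, *Itgal* 8.64 and *Cd37* 8.61. At the other end, *Camp* had 0.835, *Cd84* 1.17, *S100a9* 1.33, *Zbtb46* 1.44 and *Cx3cr1* 1.58. The genes with the high ratios were all under 1 FPKM in *Dnmt1*-WT. Among those with low ratios, *Cd84* and *S100a9* were under 1 FPKM in both libraries, and *Camp*, *Zbtb46* and *Cx3cr1* were above it in both. No difference between these genes was tested.

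*Coro1a* shares 26 bases of exon on the opposite strand with *Bola2*, which was more abundant, at 73.08 FPKM in *Dnmt1*-WT and 108.68 FPKM in *Dnmt1*-KO. The shared bases are 0.934% of the exon bases of *Coro1a*.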
